A study of Mus musculus with 12 samples.

Results

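The genes described here are 10 immediate early and AP-1 genes, Fos, Fosb, Fosl2, Jun, Junb, Jund, Egr1, Atf3, Ier2 and Myc, measured by RNA-seq in the ileum of mice. They were chosen by name, with earlier results of these data known. Their counts beside the share of all genes are therefore a description. Each symbol matched 1 Ensembl identifier among the 54838 genes of the deposited count table, and all 10 passed the filter on low counts that 15938 genes passed. The study asked how zinc in the drinking water and a glucocorticoid act together on gene expression in the gut. Adult female C57BL/6J mice with no altered gene drank normal water or 25 mM ZnSO4 for 7 days. They were then injected with 200 µg of dexamethasone (Dex), a synthetic glucocorticoid that activates the glucocorticoid receptor (GR), or with PBS alone, and the ileum was taken 2 h later. This gave 4 groups of 3 mice, called water + PBS, water + Dex, ZnSO4 + PBS and ZnSO4 + Dex, and all mice were injected. RNA came from pieces of ileum, so the epithelium, muscle, blood vessels and immune cells were measured together. In such samples fewer cells of a type and less RNA per cell cannot be told apart.

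Immediate early genes are transcribed within minutes of a stimulus from factors that are already present in the cell, and many of their mRNAs are short-lived. AP-1 is a dimer of a JUN protein (JUN, JUNB, JUND) with a FOS protein (FOS, FOSB, FOSL2) or with an ATF or MAF relative. It is known in the gut for its part in epithelial growth, wound response and inflammation. GR is known to bind AP-1 and to dampen its activity without a change in the level of its subunits, and the mRNA levels given here do not measure that activity. EGR1 and MYC are transcription factors that are themselves induced by growth signals, MYC being a regulator of proliferation in the crypts.

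The libraries held 10760132 to 11827487 counted reads (median 11388606). Values are normalised read counts, counts scaled to a common effective library size of 11377723 reads, and log2 fold changes (LFC) come from edgeR's quasi-likelihood test with Benjamini-Hochberg adjustment over the 15938 genes tested. "Rose" and "fell" are used for an adjusted p under 0.05. The 2 treatments were visible in known target genes: Fkbp5, a GR target, went from 1107 ± 128 to 11191 ± 1057 normalised counts with Dex in water mice (SD, n = 3), and the zinc-binding metallothionein gene Mt1 from 680.3 ± 181 to 18833 ± 5949 with ZnSO4 in PBS mice. The mouse ZnSO4 + Dex replicate 2 stood apart in its summed enterocyte markers (4 of 4 genes found), at 62120 normalised counts against 86006 to 157370 in the other 11 mice, and values without it are given beside the main results of its group. The 2 markers of ileal enterocytes were abundant, 52200 to 105800 normalised counts in sum, and the 3 neutrophil markers near 0, at most 40.1. In the ileal enterocyte markers ZnSO4 + Dex replicate 2 did not stand apart, at 56619 beside 58041 and 52201 in ZnSO4 + PBS replicates 2 and 3. Summed B cell markers (5 of 5 genes found) ranged from 126.9 to 5317 across mice and varied within every group.

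Per length of exon, the 10 genes covered a range of about 2 orders of magnitude. Over all 12 mice pooled, Jund had the highest mean level, 51.9 CPM (reads scaled to library size) per kb of exon, followed by Jun at 39.8, Fos at 38.9, Fosl2 at 34.5, Junb at 34.3 and Ier2 at 28.9 CPM per kb. Atf3 followed at 17.5 and Myc at 9.72 CPM per kb. Egr1 was lower, at 3.97, and Fosb lowest, at 0.495 CPM per kb with only 20 to 54 reads per mouse. The ranges over the 12 mice overlapped between all neighbours in this order except Egr1 and Fosb, so these ranges do not resolve the order of neighbours above Fosb. Farther apart, the range of Jund (43.6 to 58.8) lay above that of Ier2 (23.1 to 33.1), and that of Ier2 above Myc (6.39 to 14.9). The order also differed between groups. Junb was next to Jund in water + PBS mice, at 51.5 ± 14.8 against 52.2 ± 1.76 CPM per kb, and at 23.4 ± 2.40 in water + Dex mice. Fosl2 was at 24.9 ± 3.77 in water + PBS mice, and in water + Dex mice it was the one next to Jund, at 44.5 ± 2.25 against 50.5 ± 6.52 CPM per kb. Ier2 was the member with the smallest spread between mice of a group, a biological coefficient of variation of 0.0969, and 14.9% of tested genes varied less. Egr1 had the largest, 0.288, with 90.3% of tested genes below it.

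**Figure D1:**
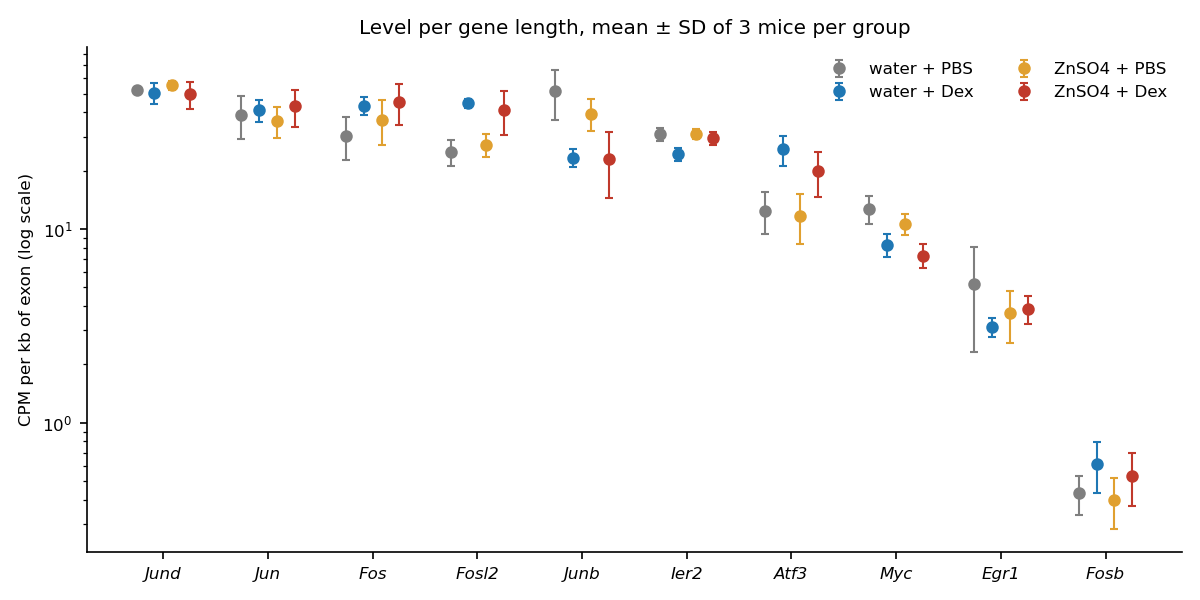
Level of each gene in CPM per kb of exon on a log axis, ordered by the mean over all mice, with the mean and SD (bars) of 3 mice in each of the 4 groups. Jund, Jun, Fos, Fosl2, Junb and Ier2 lie close together at the top, and Fosb lies lowest, at a mean of 0.495 CPM per kb.

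In mice on normal water, Dex changed 5 of the 10 genes, and in both directions. Fosl2 and Atf3 rose, by 1.79-fold and 2.07-fold, and Junb, Myc and Ier2 fell, to 0.454, 0.654 and 0.787 of the level in PBS mice. Fos, Fosb, Jun, Jund and Egr1 did not pass the test. The 5 called genes of 10 stand against 9.93% of all tested genes called in this comparison, 5.41% being called higher and 4.51% lower. The groups did not overlap for 6 members, 3 of them higher and 3 lower in the Dex mice, against 29.7% of all tested genes. With the additional cut-off that the study used, an LFC above 0.8 in size, 3 members were called, Fosl2, Atf3 and Junb, against 4.42% of all genes. Without adjustment 7 members had a p under 0.05, against 22.7% of all genes. The median LFC of the 10 members was 0.02, and that of all tested genes was -0.01.

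**Figure D2:**
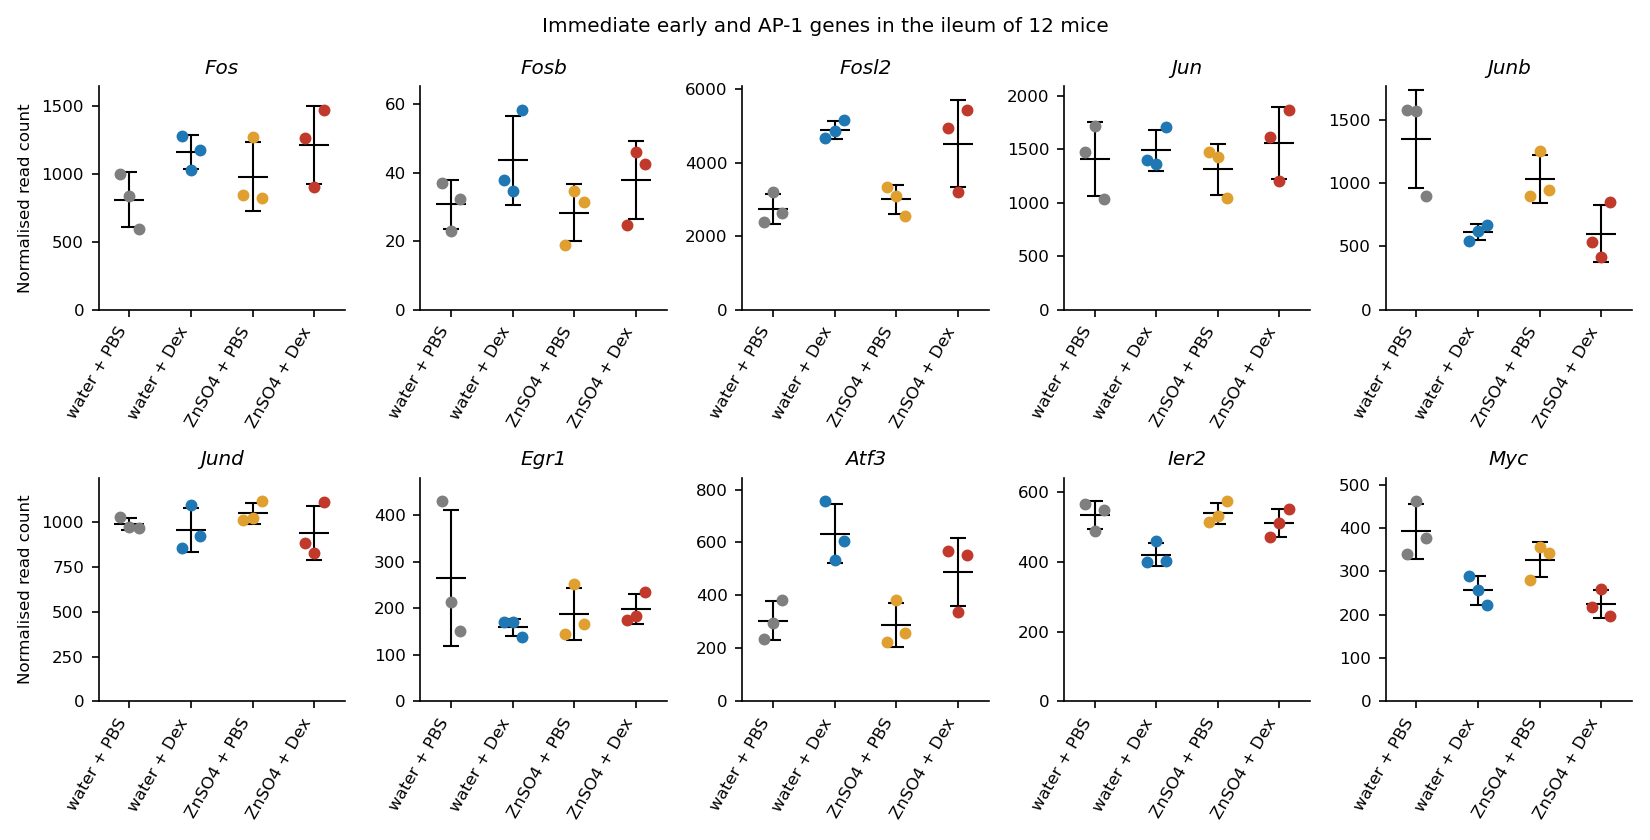
Normalised read count of each gene in each of the 12 mice (points), with the mean and SD of each group of 3 mice (line and bars), on axes that start at 0. Fosl2 and Atf3 were higher and Junb, Myc and Ier2 lower in the water + Dex mice than in all 3 water + PBS mice.

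Fosl2 (ENSMUSG00000029135, chr5:32135801-32157842, plus strand, gene positions being those of GRCm38) encodes the FOS-related antigen 2, a FOS family subunit without the strong activation domain of FOS. Its start region is printed because this gene had the lowest adjusted p of the 10. The RefSeq start used lies inside the annotated gene, as do the 250 bases upstream of it, at chr5:32136222-32136471 (GRCm38.p6, plus strand). They contain 1 match to the EGR motif GCGNGGGCG, in capitals:
Fosl2: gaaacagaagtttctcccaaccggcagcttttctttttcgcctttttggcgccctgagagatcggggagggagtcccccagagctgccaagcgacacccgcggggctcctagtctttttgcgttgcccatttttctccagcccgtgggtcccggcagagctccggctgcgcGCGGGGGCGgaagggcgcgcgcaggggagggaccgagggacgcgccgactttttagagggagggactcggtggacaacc
In the water + PBS mice the normalised counts of Fosl2 were 2391, 3201 and 2636, and in the water + Dex mice 4671, 4875 and 5165. Every Dex mouse on water was above every PBS mouse on water (LFC 0.84 ± 0.18 SE, adjusted p = 0.0118; 95% confidence interval of the fold 1.36 to 2.35). The ZnSO4 + PBS mice had 3339, 3112 and 2565, close to the water + PBS mice, and the ZnSO4 + Dex mice 4946, 3195 and 5440.1. Here the Dex mouse of replicate 2 lay within the range of the PBS mice and the other two lay above it, and the LFC did not pass (LFC 0.59 ± 0.18 SE, adjusted p = 0.0504). Without that mouse it was 0.79, with an adjusted p of 0.00264.

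Fos (ENSMUSG00000021250, chr12:85473890-85477273, plus strand) is the founding member of the family and the partner of JUN in classical AP-1. Its start region is printed for its 2 half-sites of a cAMP response element (TGACG), a motif it shared with other members. That motif was added to the search after the start regions were seen. The 250 bases lie at chr12:85473640-85473889 (GRCm38.p6, plus strand), with the half-sites and the letters TATAA in capitals:
Fos: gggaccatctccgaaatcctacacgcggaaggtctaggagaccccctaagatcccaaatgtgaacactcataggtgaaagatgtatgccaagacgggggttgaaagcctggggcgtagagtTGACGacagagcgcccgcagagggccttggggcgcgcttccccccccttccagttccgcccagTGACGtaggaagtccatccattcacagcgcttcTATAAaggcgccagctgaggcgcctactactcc
The counts of Fos were 1001, 838 and 595 in water + PBS mice and 1279, 1027 and 1176 in water + Dex mice. All 3 Dex mice were above the PBS mice, but by little beside the spread, and the difference did not pass (LFC 0.52 ± 0.23 SE, adjusted p = 0.202). In ZnSO4 mice the counts were 844, 1274 and 823 with PBS and 1266, 902 and 1469 with Dex, with overlapping groups (LFC 0.31 ± 0.23 SE, adjusted p = 0.443). Fosb (ENSMUSG00000003545, chr7:19302696-19310051, minus strand), the FOS subunit known for its stable splice form in the brain, was at 37, 23.1 and 32.3 normalised counts in water + PBS mice and 37.9, 34.6 and 58.4 in water + Dex mice. With ZnSO4 it was at 18.9, 34.8 and 31.5 with PBS and 24.9, 46.1 and 42.7 with Dex. Its groups overlapped throughout, and at these counts the interval of the Dex LFC in water mice was wide, -0.19 to 1.19.

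Among the JUN genes, Junb fell with Dex in water mice and Jun and Jund did not pass the test. Junb (ENSMUSG00000052837, chr8:84974484-84978718, minus strand) encodes a subunit that can oppose JUN in cell growth. The 250 bases upstream of its RefSeq start lie at chr8:84978749-84978998 (GRCm38.p6, minus strand) and are shown beside those of Fosl2 and Atf3 because Junb went the other way. They hold 1 half-site TGACG, in capitals:
Junb: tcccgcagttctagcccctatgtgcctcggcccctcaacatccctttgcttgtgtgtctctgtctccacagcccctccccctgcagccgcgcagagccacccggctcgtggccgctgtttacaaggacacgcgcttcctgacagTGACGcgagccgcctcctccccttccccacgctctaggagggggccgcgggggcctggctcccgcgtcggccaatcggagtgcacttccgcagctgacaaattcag
The counts of Junb were 1576, 1564 and 901 in the water + PBS mice and 545, 619.9 and 670.0 in the water + Dex mice. The lowest PBS mouse, replicate 3, was still above the highest Dex mouse (LFC -1.14 ± 0.26 SE, adjusted p = 0.0175; 95% confidence interval of the fold 0.304 to 0.678). In ZnSO4 mice Junb was at 900.4, 1250.1 and 945 with PBS and at 538, 416 and 849 with Dex. The groups did not overlap there either, while the LFC did not pass (LFC -0.78 ± 0.26 SE, adjusted p = 0.0751). Of its exonic bases, 7.52% overlap Prdx2 on the opposite strand, and the strand setting of the counting is not given in the sources used here, so some reads may belong to either gene.

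Jun (ENSMUSG00000052684, chr4:95049034-95052222, minus strand) encodes the JUN subunit itself. It was at 1479, 1718 and 1034 normalised counts in water + PBS mice and at 1398, 1363 and 1705 in water + Dex mice, and the interval of this difference was -0.37 to 0.53 on the log2 scale. With ZnSO4 the PBS mice had 1472, 1426 and 1041 and the Dex mice 1613, 1204 and 1867. Jun was lowest in PBS replicate 3 of both drinking waters, and its groups overlapped in every comparison. Jund (ENSMUSG00000071076, chr8:70698949-70700616, plus strand), a subunit that is present in resting cells and little induced by stimuli, varied least of the AP-1 subunits between mice. Its counts were 1028, 974 and 967 in water + PBS and 855, 1095 and 923 in water + Dex mice, a difference with an interval of -0.30 to 0.21. In ZnSO4 mice they were 1012, 1020.4 and 1115 with PBS and 881, 827 and 1109.6 with Dex. The count of Jund is uncertain, since 52.6% of its exonic bases overlap Gm11175 on the opposite strand, and for Jun 7.28% overlap Junos.

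Atf3 (ENSMUSG00000026628, chr1:191170296-191218039, minus strand), a stress-induced ATF protein that pairs with JUN proteins, had the largest rise of the 10. The RefSeq start used lies inside the gene, with the 250 bases upstream at chr1:191183334-191183583 (GRCm38.p6, minus strand). They hold 1 half-site on the opposite strand, read as CGTCA and shown in capitals:
Atf3: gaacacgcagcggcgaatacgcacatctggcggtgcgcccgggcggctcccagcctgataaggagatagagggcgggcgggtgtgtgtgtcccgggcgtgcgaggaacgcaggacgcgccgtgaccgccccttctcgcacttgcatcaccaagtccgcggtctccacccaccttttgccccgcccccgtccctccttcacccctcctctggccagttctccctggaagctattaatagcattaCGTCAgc
The counts of Atf3 were 236, 297 and 382 in water + PBS mice and 755, 536 and 607 in water + Dex mice. The groups did not overlap (LFC 1.05 ± 0.25 SE, adjusted p = 0.0208; 95% confidence interval of the fold 1.41 to 3.04). In ZnSO4 mice they were 224, 382 and 257 with PBS and 568, 339 and 554 with Dex. Replicate 2 of the Dex mice was again inside the range of the PBS mice, and the LFC did not pass (LFC 0.76 ± 0.25 SE, adjusted p = 0.0708). Without that mouse it was 0.96, with an adjusted p of 0.024.

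Egr1 (ENSMUSG00000038418) encodes a zinc finger factor induced through the ERK pathway and serum response factor. Its counts were 429, 214 and 150.1 in the water + PBS mice and 169, 171 and 138 in the water + Dex mice. PBS replicate 1 was far above the rest, and the groups overlapped (LFC -0.73 ± 0.33 SE, adjusted p = 0.218). Without that mouse the LFC was -0.19 (adjusted p = 0.703). In ZnSO4 mice Egr1 was at 145, 252 and 167 with PBS and 175, 184 and 235 with Dex, a difference with an interval of -0.65 to 0.80. Ier2 (ENSMUSG00000053560, chr8:84661331-84662852, minus strand), a small nuclear protein gene with rapid induction by growth factors, fell slightly in water mice. It was at 565, 488 and 549 with PBS and at 400.3, 458 and 402 with Dex, with all Dex mice below all PBS mice (LFC -0.35 ± 0.09 SE, adjusted p = 0.0323). In ZnSO4 mice it was at 513, 529.9 and 572 with PBS and 469.7, 510.1 and 550.0 with Dex, which overlapped (LFC -0.08 ± 0.09 SE, adjusted p = 0.639). The Ier2 call in water mice was lost with all genes of at least 1 count in the fit (adjusted p = 0.0782) and with only the groups compared (adjusted p = 0.0587).

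Myc (ENSMUSG00000022346, chr15:61985391-61990374, plus strand) fell in both drinking waters and was the only member to pass in both. The counts were 339.5, 462 and 376 in water + PBS mice and 289.9, 257 and 223 in water + Dex mice. All 3 Dex mice were below all PBS mice (LFC -0.61 ± 0.15 SE, adjusted p = 0.0251; 95% confidence interval of the fold 0.519 to 0.824). In ZnSO4 mice they were 281, 357 and 344 with PBS and 219, 260.4 and 198 with Dex, again without overlap (LFC -0.54 ± 0.15 SE, adjusted p = 0.0384; 95% confidence interval of the fold 0.547 to 0.87). The mouse with the highest Myc, water + PBS replicate 2, also had the most B cell marker reads, 5317 normalised counts over 5 genes. With these markers as a covariate, added after the data were seen, the LFC was -0.54 in water mice (adjusted p = 0.0475) and -0.46 in ZnSO4 mice, where it no longer passed (adjusted p = 0.0668).

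The calls in water mice rested on few animals. Leaving out 1 of the 6 mice compared left between 0 and 3 of the 5 calls: 0 without water + Dex replicate 3, where the adjusted p of Fosl2 was 0.0552, and 1, Myc, without water + PBS replicate 1. The direction of the 5 genes was the same in each of these fits. The sums of 5 of 14 marker lists did not overlap between Dex and PBS mice on water, while 29.7% of all single genes tested did not overlap. Summed enterocyte markers were 86010 to 114600 normalised counts with PBS and 120900 to 142100 with Dex, and goblet cell markers (4 genes) 97430 to 103100 and 111600 to 118300. The ileal enterocyte markers were at 70750 to 83050 with PBS and 86660 to 105800 with Dex, and enteric neuron markers (3 genes) at 157.5 to 171 and 191.2 to 233.4. Endothelial markers (3 genes) were 983.4 to 1336 with PBS and 793.1 to 851 with Dex. Of the single markers, 0 of 4 enterocyte, 0 of 4 goblet cell and 0 of 3 enteric neuron markers passed. Of the ileal enterocyte markers 1 of 2 rose, and of the endothelial markers 1 of 3 fell. With the enterocyte markers as a covariate all 5 genes passed, the LFC of Fosl2 being 0.65 (adjusted p = 0.00133) and that of Junb -1.29 (adjusted p = 0.0101). These markers did not overlap between the 2 groups, so this fit cannot tell their part from that of Dex. The part of the other lists in the result was not tested.

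In mice that had drunk ZnSO4, Fosl2 and Atf3 again had an LFC above 0 with Dex and Junb and Myc one below 0, and only Myc passed. It was 1 of 10 members against 13.7% of all tested genes called in this comparison, and 4 members had an unadjusted p under 0.05, against 26.3%. With the cut-off of 0.8 on the LFC 0 members were called, against 5.81% of all genes. Fosl2, Atf3 and Junb lay just outside the threshold, with adjusted p of 0.0504, 0.0708 and 0.0751, and all 3 passed in DESeq2, which called 4 members. Leaving out 1 of the 12 mice gave 0 to 3 calls, 0 without ZnSO4 + PBS replicate 3 or ZnSO4 + Dex replicate 1 and 3 without ZnSO4 + Dex replicate 2. Without that last mouse the LFC of Myc was -0.65 (adjusted p = 0.0263) and that of Junb -0.57 (adjusted p = 0.214), beside the values of Fosl2 and Atf3 given above. The Myc call was present in 7 of these 12 fits, being lost without water + PBS replicate 3, ZnSO4 + PBS replicates 2 and 3, and ZnSO4 + Dex replicates 1 and 3. The groups did not overlap for 2 members, Junb and Myc, both lower, against 29.1% of all tested genes. Summed markers did not overlap for proliferating crypt cells (3 genes, 4016 to 4890 with PBS and 4976 to 6138 with Dex), macrophages (4 genes, 1414 to 1599 and 1725 to 1914) and endothelium (1216 to 1270 and 889.6 to 1007), and their part in the result was not tested. Of the single markers, 1 of 3 proliferating crypt and 1 of 4 macrophage markers rose, and 1 of 3 endothelial markers fell.

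The difference between the Dex effects in ZnSO4 and in water mice was tested as an interaction, and it passed for 0 of the 10 members and for 0% of the 15938 genes in edgeR's test. The count of members at an unadjusted p under 0.05 was 0, against 4.98% of all genes, and DESeq2 called 0 of them. The 2 comparisons gave LFCs of the same sign for all members except Egr1, and they share no mouse. The interaction was LFC -0.25 ± 0.25 SE for Fosl2 (95% interval -0.80 to 0.31), LFC -0.29 ± 0.35 SE for Atf3 (-1.07 to 0.48) and LFC 0.36 ± 0.37 SE for Junb (-0.45 to 1.17). For Ier2 it was LFC 0.27 ± 0.13 SE (-0.01 to 0.55), and for Egr1 LFC 0.80 ± 0.47 SE (-0.22 to 1.82). All of these intervals include 0. Without ZnSO4 + Dex replicate 2 the interaction was -0.05 for Fosl2, -0.09 for Atf3, 0.56 for Junb, 0.27 for Ier2 and 0.85 for Egr1, and again 0 members passed. A mean of both Dex effects, added after the values were seen, called 5 members against 21.5% of all genes, 10.4% higher and 11.2% lower: Fosl2 (LFC 0.71 ± 0.13 SE, adjusted p = 0.00173), Atf3 (LFC 0.91 ± 0.18 SE, adjusted p = 0.00335), Junb (LFC -0.96 ± 0.19 SE, adjusted p = 0.00307), Myc (LFC -0.57 ± 0.11 SE, adjusted p = 0.0025) and Ier2 (LFC -0.21 ± 0.06 SE, adjusted p = 0.0346). The calls of Fosl2, Atf3, Junb and Myc were present in all 12 fits that left out 1 mouse, and that of Ier2 in 4 of the 12. With the cut-off of 0.8 on the LFC it called 2, Atf3 and Junb, against 6.31% of all genes. Fos did not pass (LFC 0.41 ± 0.16 SE, adjusted p = 0.0941), but did without ZnSO4 + PBS replicate 2 or ZnSO4 + Dex replicate 2.

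**Figure D3:**
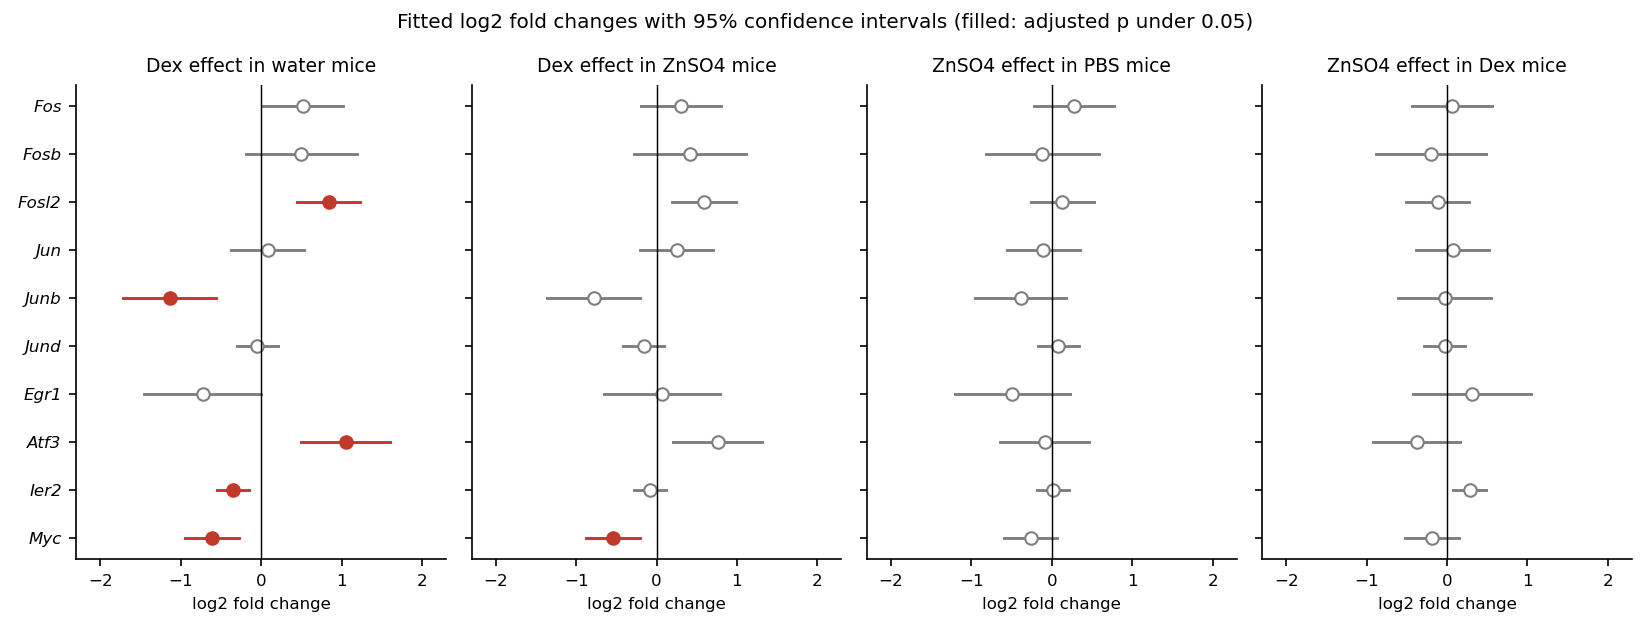
LFC of each gene with its 95% confidence interval in the 4 comparisons of 2 groups, filled red where the adjusted p was under 0.05. Fosl2, Junb, Atf3, Ier2 and Myc passed with Dex in water mice, Myc with Dex in ZnSO4 mice, and 0 genes with ZnSO4.

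Drinking ZnSO4 had no detectable effect on the 10 genes at this depth and with 3 mice per group. In PBS mice edgeR called 0 of them, against 4.66% of all tested genes, with 0 at an unadjusted p under 0.05 (19.8% of all genes) and 0 in DESeq2. The lowest adjusted p was 0.371, of Myc (LFC -0.26 ± 0.15 SE, 95% interval -0.59 to 0.07). For the AP-1 subunits the intervals were -0.26 to 0.53 for Fosl2, -0.55 to 0.35 for Jun, -0.17 to 0.34 for Jund, -0.22 to 0.77 for Fos and -0.95 to 0.18 for Junb. Those of Fosb and Atf3 were -0.82 to 0.59 and -0.64 to 0.47. For Egr1 the interval was -1.21 to 0.23 and for Ier2 -0.19 to 0.21, so for Egr1 a fall of 1 on the log2 scale stays within it. In Dex mice ZnSO4 also gave 0 calls in edgeR and 0 in DESeq2, against 4.37% of all tested genes. The intervals of Egr1 and Fosb in Dex mice were -0.42 to 1.04 and -0.88 to 0.48. There Ier2 had the lowest adjusted p (LFC 0.28 ± 0.09 SE, adjusted p = 0.115), and it was the only member with an unadjusted p under 0.05, against 19.1% of all genes. The ZnSO4 + Dex mice were above the water + Dex mice without overlap for Ier2 and Egr1, 2 of 10 members, against 25.9% of all tested genes. The mean of both ZnSO4 effects, added after the values were seen, called 0 members in edgeR and 0 in DESeq2, against 12.8% of all genes, with 1 member, Ier2, at an unadjusted p under 0.05 (LFC 0.15 ± 0.06 SE, adjusted p = 0.16). The ZnSO4 comparison in PBS mice and the Dex comparison in water mice use the same water + PBS mice. Without ZnSO4 + Dex replicate 2 the LFC of Ier2 in Dex mice was 0.28 (adjusted p = 0.209). Summed T cell markers (4 genes) were lower in ZnSO4 mice, 308.4 to 569.2 against 653.7 to 1061 in water mice. Goblet cell markers were higher, 108300 to 131700 against 97430 to 103100 in PBS mice and 125300 to 141700 against 111600 to 118300 in Dex mice. In PBS mice 3 further lists did not overlap: enterocytes (116500 to 156300 with ZnSO4 and 86010 to 114600 without), macrophages (1414 to 1599 and 1627 to 2113) and enteric neurons (178.5 to 275.1 and 157.5 to 171). In Dex mice these were smooth muscle (6 genes, 20890 to 30350 with ZnSO4 and 18290 to 19450 without), endothelium (889.6 to 1007 and 793.1 to 851) and neutrophils (2.07 to 3.84 and 4.32 to 10.8). Of the single markers, 1 of 4 T cell markers fell in PBS mice and 2 of 4 in Dex mice. Of the goblet cell markers 1 of 4 rose in each, and in the further lists 0 single markers passed. The part of these lists in the values was not tested.

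The other genes of the same pathways were read from lists by role, also chosen with earlier results of these data known. Among 14 tested AP-1 subunits and partners outside the 10, Dex raised 2 and lowered 2 in water mice, and raised 2 and lowered 4 in ZnSO4 mice. Among all tested genes Dex raised 5.41% and lowered 4.51% in water mice, and raised 6.65% and lowered 7.08% in ZnSO4 mice. Without water + PBS replicate 3 the number raised in water mice was 1, and without ZnSO4 + PBS replicate 1, ZnSO4 + Dex replicate 2 or ZnSO4 + Dex replicate 3 the number lowered in ZnSO4 mice was 2. Maff, which encodes a small MAF protein, rose in both, from 199 ± 13.4 to 569 ± 60.7 normalised counts in water mice (LFC 1.51, adjusted p = 3.66e-05) and from 202 ± 10.4 to 543 ± 109.6 in ZnSO4 mice (LFC 1.42, adjusted p = 4.77e-05). Batf2, an interferon-inducible BATF protein, fell with Dex in water mice (LFC -1.61, adjusted p = 1.83e-05) and in ZnSO4 mice (LFC -1.81, adjusted p = 1.15e-05), and it also fell with ZnSO4, in PBS mice (LFC -1.11, adjusted p = 0.00115) and in Dex mice (LFC -1.31, adjusted p = 0.000796). Its group means were 404 ± 22.6, 132 ± 9.16, 187 ± 37.9 and 53.1 ± 2.12 normalised counts for water + PBS, water + Dex, ZnSO4 + PBS and ZnSO4 + Dex. Nfe2l2, which encodes the oxidative stress factor NRF2, fell with Dex by a similar amount in both waters, LFC -0.83 in water and -0.82 in ZnSO4 mice. Atf2 and Ddit3 fell in ZnSO4 mice, and without ZnSO4 + Dex replicate 2 neither passed (adjusted p = 0.113 and 0.104).

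Of 35 other immediate early genes tested, Dex raised 5 and lowered 5 in water mice and raised 10 and lowered 7 in ZnSO4 mice, beside the 9.93% and 13.7% of all tested genes called in either direction. Without ZnSO4 + PBS replicate 1 the number raised in ZnSO4 mice was 6. The median LFC was 0.09 and -0.03, against -0.01 and 0.01 for all genes. Gadd45b and Gadd45g, growth arrest genes, rose most beside Arc: Gadd45g went from 258 ± 88.7 to 1161 ± 224 normalised counts in water mice (LFC 2.17, adjusted p = 0.000818) and from 184 ± 62.1 to 1526 ± 346 in ZnSO4 mice (LFC 3.05, adjusted p = 7.11e-05). Btg1 and Btg2, which restrain proliferation, rose in both (LFC 1.19, adjusted p = 0.00343 and LFC 0.98, adjusted p = 0.0037 in water mice). Arc, best known from neurons, rose from 7.2 ± 2.66 to 37.5 ± 14.6 normalised counts, at low counts (LFC 2.37, adjusted p = 0.00267). The genes that fell in both were Klf10, Dusp5, Phlda1, Zfp36l1 and Ier5l. Klf10, an early TGF-beta response gene, fell from 473 ± 59.4 to 219.7 ± 31.7 in water mice (LFC -1.11, adjusted p = 0.000152), and Dusp5, a nuclear ERK phosphatase, from 132 ± 7.67 to 73.1 ± 7.98 (LFC -0.85, adjusted p = 0.000998). Dusp1, the phosphatase that GR is known to induce, passed in ZnSO4 mice (LFC 1.29, adjusted p = 0.014) and not in water mice (LFC 0.74, adjusted p = 0.158), where 1 of the groups was widely spread (198 ± 106 with PBS), and the interaction did not pass. Without ZnSO4 + Dex replicate 2 the LFC of Dusp1 in ZnSO4 mice was 1.16 (adjusted p = 0.047), and that of Gadd45g 3.22. With ZnSO4, 0 of the 35 genes passed in PBS mice in edgeR and 0 in DESeq2, with 3 higher and 5 lower at an unadjusted p under 0.05, and 1, Srf, fell in Dex mice (LFC -0.35, adjusted p = 0.00951), a call lost without water + Dex replicate 3.

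Among the 23 upstream kinases and serum response factors, Dex raised 2 and lowered 0 in water mice, and raised 2 and lowered 2 in ZnSO4 mice. Of all tested genes 9.93% and 13.7% were called in either direction. With 1 mouse left out, 0 to 3 of the 23 fell in ZnSO4 mice. Mrtfb, a cofactor of serum response factor, rose with Dex in both drinking waters. It went from 562 ± 26.9 to 872 ± 37.2 normalised counts in water mice (LFC 0.63, adjusted p = 0.000119). Elk3 and Map2k4 fell with Dex in ZnSO4 mice, and neither passed without ZnSO4 + Dex replicate 2 (adjusted p = 0.087 and 0.0675) or without ZnSO4 + PBS replicate 3. Mapk13, a p38 kinase gene, fell with ZnSO4 in PBS mice (LFC -0.47, adjusted p = 0.028) and in Dex mice (LFC -0.51, adjusted p = 0.0171). The call in PBS mice was lost in 8 of the 12 fits that left out 1 mouse, each mouse of the 2 groups compared among them, and that in Dex mice without water + Dex replicates 2 and 3 and ZnSO4 + Dex replicate 1. In the MYC network (12 genes), Dex raised 2 and lowered 1 in water mice, and raised 1 and lowered 3 in ZnSO4 mice. With 1 mouse left out, 0 to 1 fell in water mice and 1 to 3 in ZnSO4 mice, and 1 to 2 rose in each. Mlxip, a partner of MLX, rose and Mnt, a repressor that competes with MYC for MAX, fell with Dex in both waters. Mlxip went from 1122 ± 189 to 2471 ± 58.9 in water mice (LFC 1.14, adjusted p = 5.19e-05) and Mnt from 336 ± 47.5 to 234 ± 6.23 (LFC -0.52, adjusted p = 0.0111). Without water + Dex replicate 3 the fall of Mnt in water mice did not pass.

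Known target genes of the members formed 3 further lists. Of 12 AP-1 targets, 4 fell and 0 rose with Dex in water mice and 3 fell and 0 rose in ZnSO4 mice in edgeR, against the 4.51% and 7.08% of all genes called lower. With 1 mouse left out, 3 to 5 fell in water mice and 2 to 3 in ZnSO4 mice, where 1 rose without ZnSO4 + Dex replicate 2. DESeq2 called 5 lower and 1 higher in water mice and 3 lower and 1 higher in ZnSO4 mice, and at an unadjusted p under 0.05 there were 7 lower and 1 higher, and 3 lower and 1 higher. The median LFC of the list was -0.58 in water mice and -0.15 in ZnSO4 mice, beside -0.01 and 0.01 for all genes. Plau, the urokinase gene, went from 128 ± 22 to 32.4 ± 7.8 normalised counts in water mice (LFC -1.98, adjusted p = 0.00203) and from 182 ± 54.6 to 48.2 ± 21.5 in ZnSO4 mice (LFC -1.91, adjusted p = 0.00139). Mmp13, a collagenase gene, and Cd44, a hyaluronan receptor gene, fell in both, the fall of Cd44 in ZnSO4 mice not passing without ZnSO4 + Dex replicate 2 (adjusted p = 0.0522), and Ccnd1, which encodes cyclin D1, fell in water mice (LFC -0.75, adjusted p = 0.00136). Ccnd1 also fell with ZnSO4, from 1557 ± 216 to 708 ± 26.9 in PBS mice (LFC -1.14, adjusted p = 0.000414). Of 4 EGR1 targets tested, 1 rose and 1 fell with Dex in both waters. Of all tested genes 9.93% were called in water mice and 13.7% in ZnSO4 mice. The EGR1 target that fell was Nab2, a corepressor of EGR proteins. Its LFC was -1.48 in water mice (adjusted p = 0.0017) and -1.74 in ZnSO4 mice (adjusted p = 0.000396). Of 12 MYC targets, 0 passed with Dex in edgeR in either water, while Myc itself fell. In water mice 4 of them were lower at an unadjusted p under 0.05 and DESeq2 called 1 lower, and in ZnSO4 mice 1 was higher and 2 lower at that p and DESeq2 called 1 higher. With ZnSO4, 3 of them fell in PBS mice, where Myc did not pass: Cad (LFC -0.64, adjusted p = 0.00604), Eif4e (LFC -0.40, adjusted p = 0.0175) and Nop58 (LFC -0.39, adjusted p = 0.0254), genes of pyrimidine synthesis, cap-dependent translation and small nucleolar RNPs. The count of 3 stands against 4.66% of all genes called in that comparison, and it was 1 without water + PBS replicate 1, water + PBS replicate 3 or ZnSO4 + PBS replicate 3. Cad fell in Dex mice as well (LFC -0.53, adjusted p = 0.0141), though not without water + Dex replicate 1 or ZnSO4 + Dex replicate 1.

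**Figure D4:**
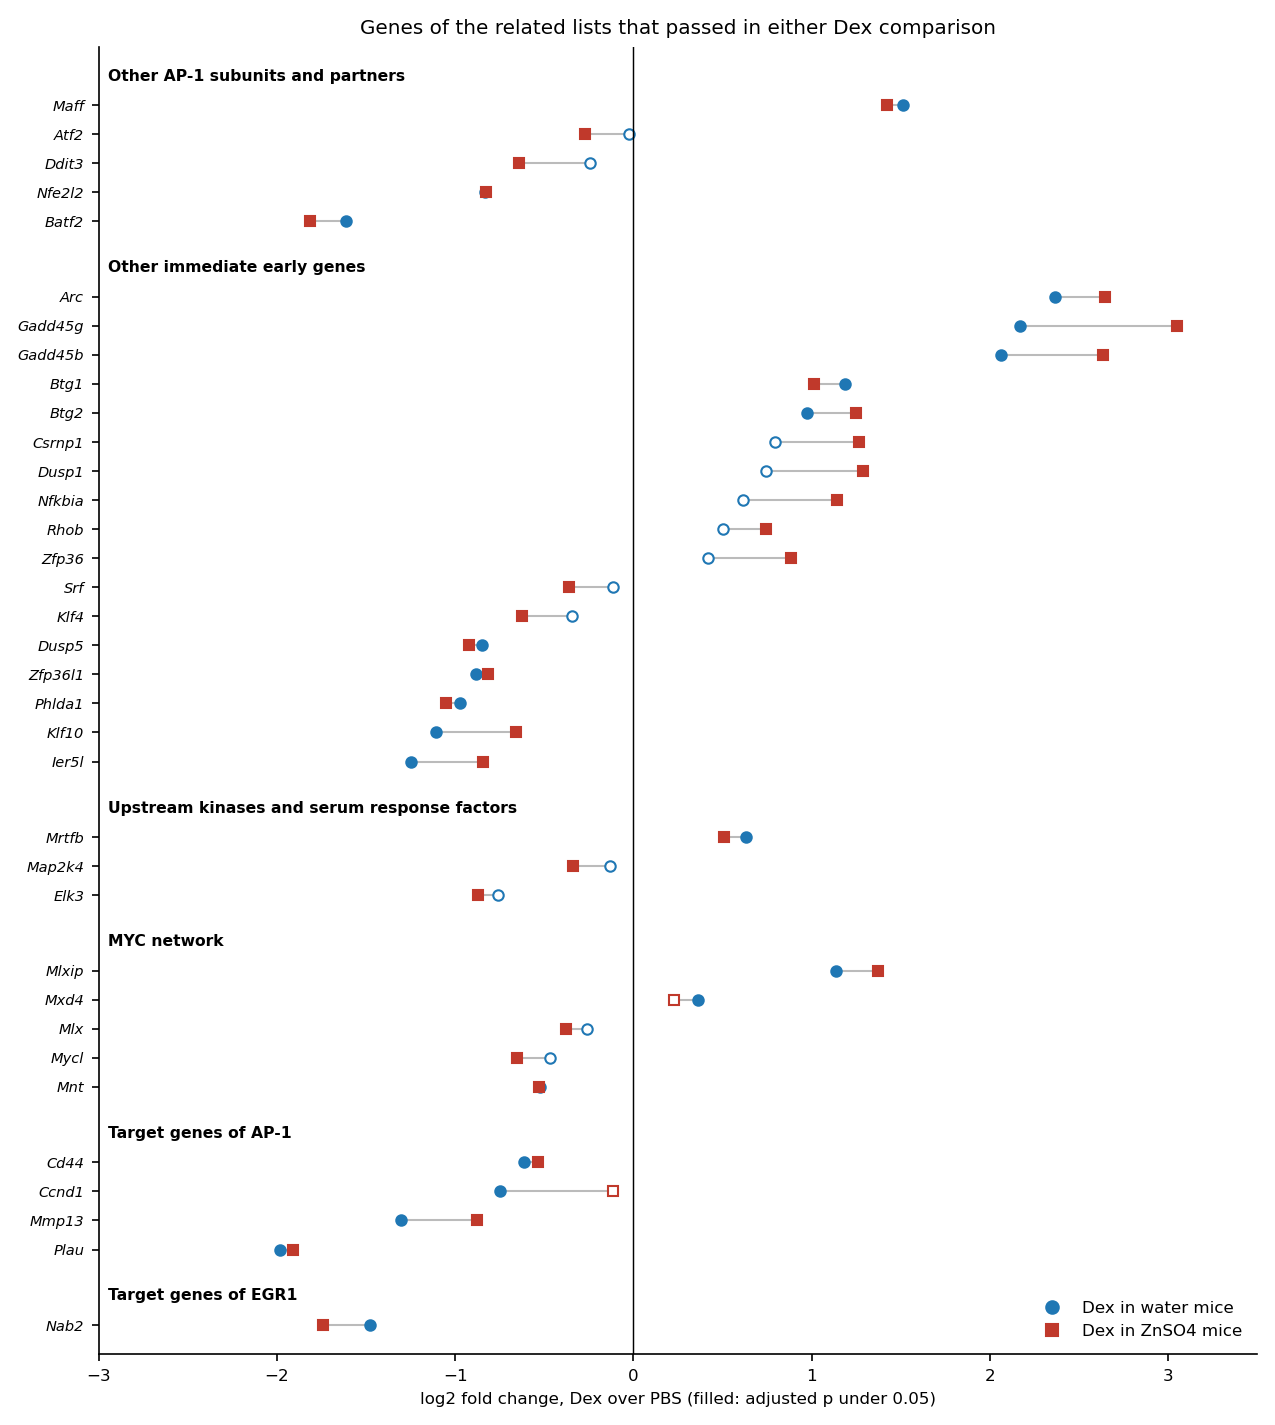
LFC of Dex over PBS in water mice (circles) and ZnSO4 mice (squares) for genes of the related lists that passed in either comparison, less a few not reported here, filled where the adjusted p was under 0.05. The points of each gene lie on the same side of 0 in both drinking waters, with Gadd45g furthest right and Plau furthest left.

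Deviations of the mice from their group means were compared between the 10 genes. Fos and Junb deviated from their group means in the same direction most closely, with Pearson's r = 0.846 and Spearman's rho = 0.818 over 12 mice (exact permutation within groups, two-sided p = 0.0131 and 0.0247, adjusted p = 0.264 and 0.556 over 45 pairs). Without the 2 mice farthest from the median of Fos, r was 0.699. Next came Jun with Junb (r = 0.809), Fosl2 with Jun (r = 0.769), Fos with Egr1 (r = 0.768) and Jund with Ier2 (r = 0.739), all with an adjusted p of 0.264. By this test 0 of the 45 pairs passed after adjustment, and the median r was 0.128, with 27 of the pairs positive. ZnSO4 + Dex replicate 3 was above its group mean in 9 of 10 genes and ZnSO4 + PBS replicate 2 in 8, while ZnSO4 + PBS replicate 1 was above it in 2.

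**Figure D5:**
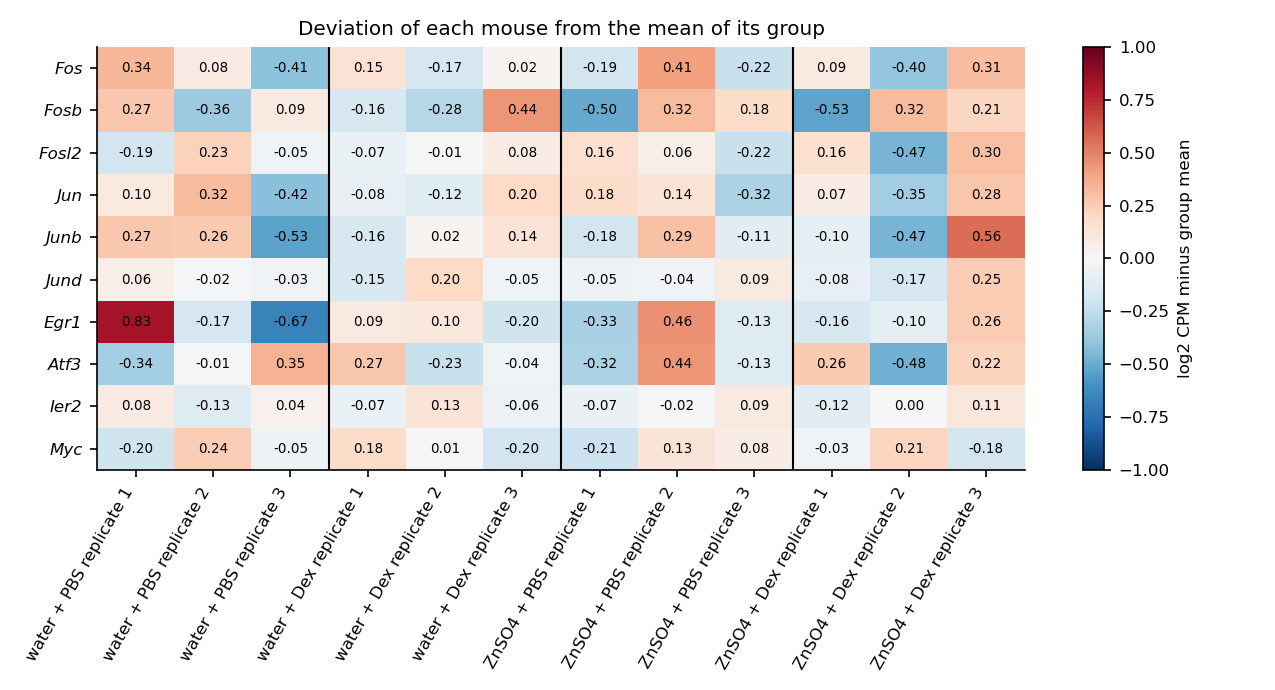
Difference of each mouse's log2 CPM from the mean of its group of 3 mice, for the 10 genes (rows) and 12 mice (columns), from blue (below) to red (above). Water + PBS replicate 1 is highest for Egr1, and ZnSO4 + Dex replicate 2 is low for Fosl2, Junb and Atf3.

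Over all 12 mice, the genes most like each of 5 members were sought among 14970 genes by Pearson's r of log2 CPM, as a description that includes the treatment differences. Fosl2 was closest to Por (r = 0.968), Ube2q1 (0.961) and Zfp410 (0.961), and Myc to Sept9 (0.961), Ccdc88c (0.952) and Rpa2 (0.951). Atf3 was closest to Ergic2 (0.947), Tbpl1 (0.941) and Snx16 (0.94). Without the 2 mice farthest from the median of the member, r for these matches was 0.902 to 0.955. Egr1 was closest to Nr4a1 (0.864), itself an immediate early gene, then to Med27 (0.83) and Lrfn3 (0.827). Without the 2 mice farthest from the median of Egr1, these r were 0.799, 0.686 and 0.511. Fos had the lowest best match, Ubxn7 (0.858), with Csnk1g3 (0.84) and Mcts1 (0.826). Without the 2 mice farthest from the median of Fos, these r were 0.746, 0.677 and 0.569. None of the closest genes was another of the 10.

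RefSeq start regions of 300 bases, 250 before and 50 after the start, were at hand for 7 of the 10 genes. The half-site TGACG was found, on either strand, in Fos, Fosb, Junb and Atf3, against 20.8% of all 32851 regions, and Fos held 2. This motif and TATAA were added after the regions were seen, so they are no test of the members against all regions. The motif GCGNGGGCG was in Fosl2 and Fosb (5.55% of all regions) and TATAA in Fos and Junb (24.9%). In Junb the letters TATAA lay at bases 1 to 5 after the RefSeq start, which is upstream of the annotated gene start. On the minus strand its 250 bases end at chr8:84978749, and the gene starts at chr8:84978718. The full cAMP response element TGACGTCA (1.79% of all regions, and a match to it also contains TGACG), the AP-1 motif TGANTCA (7.81%), the E-box CACGTG (7.15%), the CArG box (1.63%) and the palindromic GR motif (0.00913%) were in 0 of the 7. Atf3, which rose with Dex in water mice, and Junb, which fell, both held the half-site. A match marks letters and not a bound site, and motifs farther than 250 bases upstream were not searched. The RefSeq start used for Jund lies before the annotated gene. Its 250 bases end at chr8:70697738, and the gene starts at chr8:70698949.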

How the data were processed

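RNA-seq of the ileum of 12 mice was used, 3 in each of 4 groups taken from the sample titles. The authors made stranded libraries, sequenced them single-end, trimmed reads with Trimmomatic, aligned them to mm10 with HISAT2 2.0.4 and deposited raw counts per gene from featureCounts, with reads of more than 1 position left out; annotation release and strand setting are not given in the sources used here. Counts were analysed in R 4.3.3 with edgeR 4.0.16: filterByExpr (minimum count 10), TMM, 4 group means, glmQLFit and glmQLFTest, adjusted over 15938 genes. Normalised counts are counts divided by effective library size, times the mean of these sizes. CPM per kb used the union of exons in GRCm38. Total counts per mouse were 10760132 to 11827487, and the common biological coefficient of variation was 0.191. Pairs of libraries within a group differed by more than counting noise (chi-square per degree of freedom 8.23 to 45.4). Tables of sequences came from RefSeq (GRCm38.p6). The test was checked on simulated data.

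The 10 genes and the lists of related genes were chosen with earlier results of these data known. All 10 genes were named, with at most 8 genes that passed per list and comparison, and the 3 genes most similar to each of 5 members; a few genes of the lists, which stay in their counts, are not reported here. The half-site TGACG and TATAA were added to the motif search after the start regions were seen. Other settings were DESeq2 1.42.0; RLE or upper-quartile factors; a filter of 1 count in any library, or of 10 in each of them; a replicate block; fits restricted to the 2 groups of a comparison; the LFC cut-off of 0.8 that the study used; and omission of single mice. Covariates for B cell and enterocyte markers and the 2 averaged comparisons were added after the data were seen. The smallest p of an exact permutation of 3 mice against 3 is 0.1, so single genes were not tested that way.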

Additional observations from a re-analysis of the deposited data

How the results depend on the processing

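The number of members called with Dex in ZnSO4 mice was 1 in the reported fit. It was 0 with a cut-off of 0.8 on the LFC and with only the groups compared, 2 with upper-quartile factors, with at least 10 counts in every library and with the B cell covariate, 3 with the enterocyte covariate, and 4 with DESeq2 and with all genes of at least 1 count. With the LFC cut-off the count was 3 in place of 5 for Dex in water mice and 2 in place of 5 for the mean of both Dex effects. Leaving out 1 mouse gave 0 to 5 calls for Dex in water mice, 0 to 3 for Dex in ZnSO4 mice, 4 to 5 for the mean of both Dex effects, and 0 for each ZnSO4 comparison and the interaction. The cause was not tested. The deviations of equally numbered mice had a median r of -0.0557 over 18 pairs of libraries, from -0.359 to 0.457. For mice of different numbers the median r was 0.0225 over 36 pairs. The sample titles do not say what the replicate numbers stand for, so these values cannot exclude a pairing. With the replicate number as a block, 4 members were called for Dex in water mice (Ier2 lost, adjusted p = 0.0505), 1 in ZnSO4 mice, 5 for the mean of both and 0 for ZnSO4. No rescaling moved the median LFC of all genes by more than 0.0444.

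Of all gene results under alternatives, 1316 were unchanged in direction and call, 20 newly passed, 38 no longer passed and 66 turned in sign, all of them in results that had not passed. With upper-quartile factors the ZnSO4 LFC in Dex mice became 0.0113 for Junb and 0.0130 for Jund, and that averaged over injections 0.0167 for Jun. With the B cell covariate it was -0.00573 for Ier2 in PBS mice and 0.0165 for Jun averaged over injections. With the enterocyte covariate the Dex LFC of Jun in water mice was -0.0537. The same covariate gave ZnSO4 LFCs in PBS mice of 0.0205 for Fosb and -0.0687 for Fosl2, and in Dex mice of 0.0288 for Fosl2, 0.0635 for Junb and 0.0322 for Jund. It gave an interaction of 0.0974 for Fosl2, 0.0220 for Jund and -0.0757 for Myc, and an averaged ZnSO4 LFC of -0.0200 for Fosl2. When 1 mouse was left out, the Dex LFC ranged from -0.102 to 0.244 for Jun and -0.167 to 0.0275 for Jund in water mice and from -0.0814 to 0.340 for Egr1 in ZnSO4 mice. The ZnSO4 LFC in PBS mice ranged from -0.343 to 0.110 for Atf3, -0.774 to 0.0664 for Egr1, -0.288 to 0.104 for Fosb, -0.0498 to 0.0722 for Ier2 and -0.283 to 0.0635 for Jun. In Dex mice it ranged from -0.100 to 0.236 for Fos, -0.369 to 0.0683 for Fosb, -0.270 to 0.0820 for Fosl2, -0.0817 to 0.224 for Jun, -0.361 to 0.180 for Junb and -0.167 to 0.0881 for Jund. Averaged over injections it ranged from -0.232 to 0.190 for Egr1, -0.0691 to 0.107 for Fosl2, -0.108 to 0.0651 for Jun and -0.0414 to 0.0921 for Jund. The interaction ranged from -0.404 to 0.0213 for Fos, -0.306 to 0.173 for Fosb and -0.0565 to 0.173 for Myc. Depth limits Fosb most, at 20 to 54 reads per mouse.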
